A study of Mus musculus with 2 samples.

Results

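The SNARE and synaptotagmin genes of secretion were followed in 2 long-read RNA-seq libraries of the mouse adrenal gland. Members were the protein-coding genes of the annotation whose symbol is Stx, Vamp, Syt, Snap, Stxbp or Cplx followed by a digit. The rule uses names and not measured values, but earlier results of these data were known when it was chosen. This gave 56 of 55536 annotated genes, and 48 of the 56 had at least 1 read in either library, among 16674 annotated genes that did. Vamp7-ps and Stxbp3-ps match the symbols but are not protein-coding; both had 0 reads in either library and were left out.

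Replicates 1 and 2 are adrenal gland tissue of C57BL/6J mice, a common inbred strain, measured as total RNA with no treatment named. The free-text labels name wild-type females, whereas the sex field reads not collected and the age is unknown. Each library has a biosample of its own, but both carry the same donor identifier, so the labels do not show whether separate animals gave the tissue. With 1 group there is no contrast between conditions, and any test here sets the reads of replicate 1 against those of replicate 2. In long-read RNA-seq a cDNA is read along its length, so 1 read shows which exons were joined.

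Replicate 1 held 810239 reads and replicate 2 held 587861, and a count of 0 allows up to 3 reads, which is 3.70 CPM (counts divided by the total of their library and rescaled) in replicate 1 and 5.10 CPM in replicate 2. Such floors, and all intervals given here, cover counting error only. The annotated models behind the reads were shorter in replicate 1, with a median over reads of 1648 nt against 3052 nt in replicate 2. Markers of the cortex were at 79765 CPM in replicate 1 and 98685 CPM in replicate 2, with 10 of 10 listed genes detected. Markers of chromaffin cells, the catecholamine cells of the medulla, were at 9453 and 10171 CPM, with 14 of 14 detected, so the labelled tissue has both of its parts in the reads. In a whole gland, fewer cells of a type and less RNA per cell cannot be told apart.

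Vesicles fuse with a target membrane when an R-SNARE on the vesicle (the Vamp family) zips together with Q-SNAREs on the target (syntaxins and the SNAP25 family). Synaptotagmins sense calcium or tether vesicles, the syntaxin-binding proteins of the Unc18 type hold and template syntaxins, and complexins clamp the partly zipped complex. In chromaffin cells this machinery releases adrenaline, noradrenaline and neuropeptides from dense-core granules. Other members of the same families serve the Golgi, endosomes, lysosomes and autophagosomes in every cell, cortical cells included.

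Member reads numbered 1244 in replicate 1 and 1248 in replicate 2. As levels these are 1535 CPM in replicate 1 and 2123 CPM in replicate 2, a mean of 1829 ± 416 CPM (SD, n = 2), or 0.154% and 0.212% of all reads. Reads were found for 44 members in replicate 1, 46 in replicate 2 and 42 in both. Counted over both libraries, 16 members had at least 50 reads, 18 had 10 to 49, 14 had 1 to 9, and 8 had none. The median over all members, those without reads included, was 16 reads. It was also 16 reads over all detected genes, but that figure leaves out genes without reads, so the medians are not on the same basis. Among the 48 detected members alone, the median lay between Stx3 with 24 reads and Stxbp6 with 25. Gene bounds of 29 members overlap another annotated gene. The 10 members with most reads took 63.8% of member reads in replicate 1 and 66.7% in replicate 2. CPM is not divided by transcript length here, because 1 long read stands for 1 molecule, and levels are also ranked among the genes whose most used annotated model is within 20% of the same length.

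**Figure D1:**
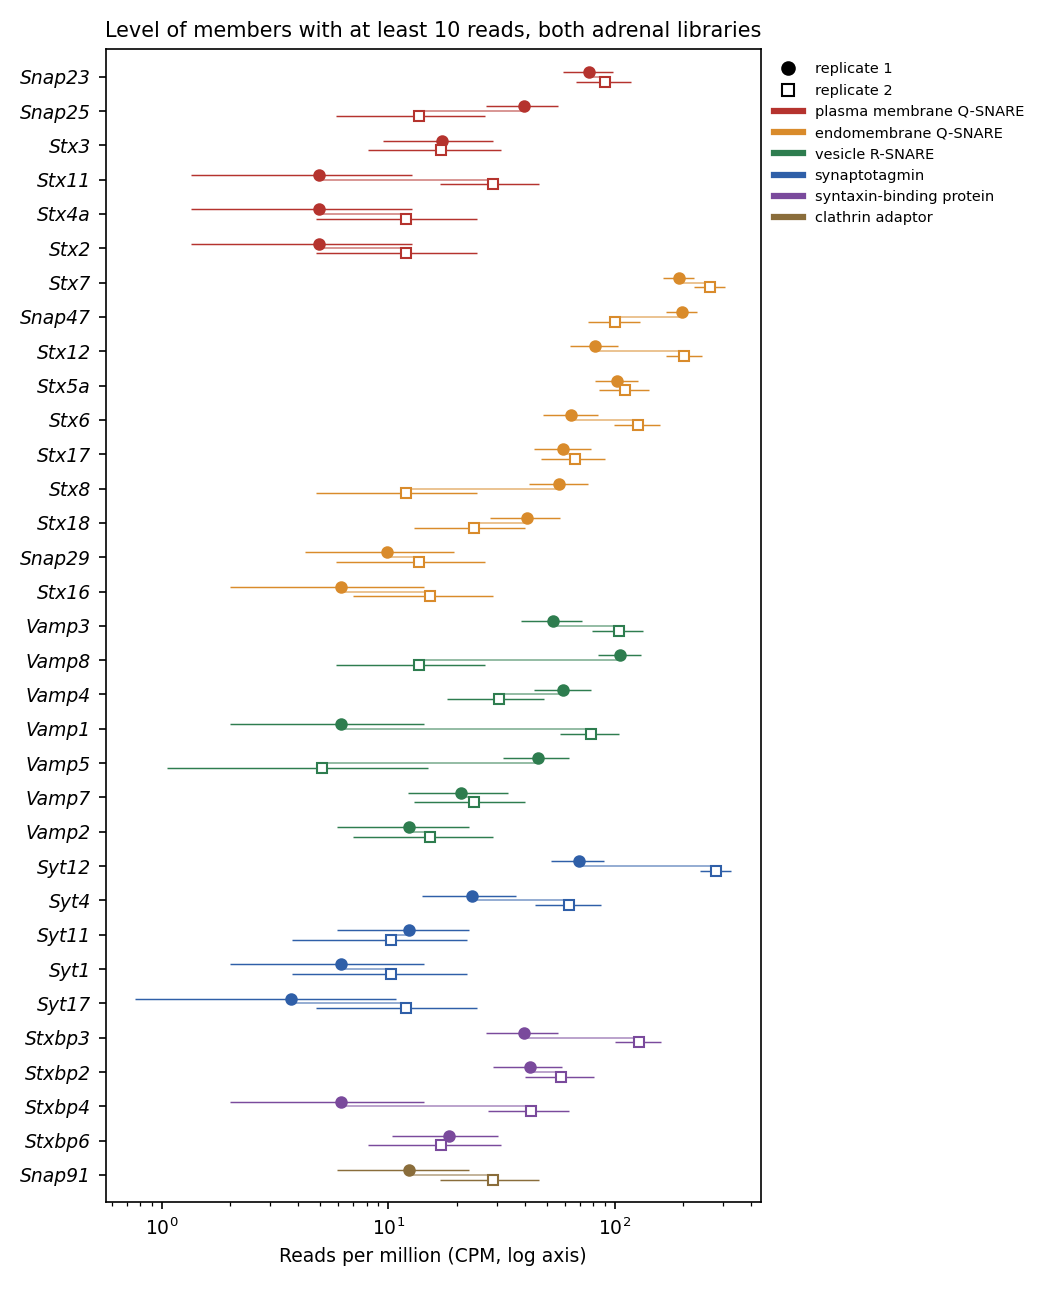
Level in CPM (log axis) of 33 members with at least 10 reads over both libraries, ordered by role and then by reads; filled circles are replicate 1, open squares replicate 2, and thin lines are 95% exact Poisson intervals. Endomembrane Q-SNAREs fill the right of the plot with Syt12, while replicates lie far apart for Vamp8, Vamp1, Vamp5 and Stx8.

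Q-SNAREs of internal membranes were the role with most reads in both libraries. The 10 members of this role, all detected, held 656 reads in replicate 1 and 548 in replicate 2, which is 52.7% (95% Clopper-Pearson interval 49.9 to 55.5) and 43.9% (41.1 to 46.7) of member reads. Stx7, the syntaxin of late endosomes (chr10:24149302-24190222, + strand, mm10), had 155 reads in replicate 1 and 154 in replicate 2, or 191 and 262 CPM. Its mean of 227 ± 49.97 CPM was the highest of any member, at rank 105 and rank 297 of 3305 genes of like length. Snap47, a SNAP25 relative found mainly on internal membranes (chr11:59407134-59451186, - strand), had 160 reads in replicate 1 and 59 in replicate 2, or 198 and 100 CPM. Snap47 led all members in replicate 1, whereas in replicate 2 it stood below Syt12, Stx7, Stx12, Stxbp3, Stx6, Stx5a and Vamp3.

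Syntaxins of the endosome, the Golgi and the endoplasmic reticulum followed. Stx12, a recycling endosome syntaxin (chr4:132853501-132884509, - strand), had 66 reads in replicate 1 and 119 in replicate 2. Stx5a, the syntaxin of transport between endoplasmic reticulum and Golgi (chr19:8741413-8756069, + strand), had 83 and 65 reads. Stx6, of the trans-Golgi network (chr1:155158715-155208256, + strand), had 52 and 74 reads. All 3 were thus well covered in both libraries, with Stx5a nearly level between them on the CPM scale, at 102 and 111 CPM. Stx17, an autophagosome syntaxin (chr4:48124915-48186507, + strand), had 48 reads in replicate 1 and 39 in replicate 2. Stx8, a late endosome Q-SNARE (chr11:67966193-68207148, + strand), had 46 and 7 reads, so that most of its reads were in replicate 1. The other members of this role were Stx18 of the endoplasmic reticulum, with 33 and 14 reads, and Snap29 and Stx16, which had 8 and 5 reads in replicate 1 and 8 and 9 in replicate 2.

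Q-SNAREs of the plasma membrane held 120 reads in replicate 1 and 111 in replicate 2. Snap23, the SNAP25 relative of non-neuronal cells (chr2:120567671-120601255, + strand), led them with 62 reads in replicate 1 and 53 in replicate 2, or 76.5 and 90.2 CPM. Snap25, its counterpart in neurons and endocrine cells (chr2:136713453-136782428, + strand), had 32 reads in replicate 1 and 8 in replicate 2, or 39.5 and 13.6 CPM. Snap23 was thus above Snap25 in CPM in both libraries, with most used models of 2723 nt and 1014 nt. Stx1a, the syntaxin of regulated exocytosis in neurons and chromaffin cells (chr5:135023482-135051100, + strand), had 0 reads in replicate 1, which allows 3.70 CPM, and 9 reads or 15.3 CPM in replicate 2. Stx19 had 0 reads in both libraries. Stx3, Stx11, Stx4a and Stx2, other plasma membrane syntaxins, had 4 to 14 reads in replicate 1 and 7 to 17 in replicate 2.

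Snap25 has mutually exclusive forms of exon 5. As background, the b form prevails in adult brain and the a form in neuroendocrine tissue. The reads can tell them apart, because Snap25-202 holds exon 5a (chr2:136769743-136769860, + strand, mm10) and Snap25-201 exon 5b (chr2:136770057-136770174). Each is 118 nt long, and 31 bases differ, which is 73.7% identity. Both are printed from the GENCODE M21 transcripts, with capitals on the bases that differ, to show what a read must carry to be assigned.
Snap25 exon 5a: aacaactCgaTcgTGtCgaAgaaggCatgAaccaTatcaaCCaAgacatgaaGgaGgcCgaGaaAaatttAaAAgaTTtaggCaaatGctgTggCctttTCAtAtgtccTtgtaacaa
Snap25 exon 5b: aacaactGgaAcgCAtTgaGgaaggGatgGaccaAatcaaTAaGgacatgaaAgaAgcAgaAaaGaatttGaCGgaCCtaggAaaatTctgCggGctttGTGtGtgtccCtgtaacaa

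Exon 5a was the more used in both libraries. In replicate 1, 18 of the reads with either exon joined exon 4 to exon 5a and 3 to exon 5b, and in replicate 2 these were 5 and 2. Exon 5b thus took 14.3% (3.05 to 36.3) of such reads in replicate 1 and 28.6% (3.67 to 71.0) in replicate 2, with intervals that overlap widely. A further 10 Snap25 reads of replicate 1 were of a model that holds the junctions of the first 4 exons only. They could not be assigned, and no such read was in replicate 2. That model is 938 nt long, beside 1014 nt for all 8 exons of Snap25-202. It thus runs beyond the annotated bounds of its 4 exons.

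Vesicle R-SNAREs held 245 reads in replicate 1 and 159 in replicate 2, or 19.7% (17.5 to 22.0) and 12.7% (10.9 to 14.7) of member reads, and 7 of 8 members were detected. Vamp3, or cellubrevin, of recycling endosomes (chr4:151047300-151057963, - strand), had 43 reads in replicate 1 and 61 in replicate 2. Vamp8, an R-SNARE of late endosomes and of secretory granules in blood cells and exocrine glands (chr6:72385223-72390703, - strand), had 85 reads in replicate 1 and 8 in replicate 2, or 105 and 13.6 CPM. Vamp8 was therefore the R-SNARE with most reads in replicate 1 and among the lowest in replicate 2. Vamp4, of the trans-Golgi network (chr1:162570515-162599084, + strand), had 48 and 18 reads. Vamp2, synaptobrevin, the R-SNARE of synaptic vesicles and chromaffin granules (chr11:69088490-69092384, + strand), had 10 reads in replicate 1 and 9 in replicate 2, or 12.3 and 15.3 CPM. It was thus low but even between the libraries. Vamp5 and Vamp7 had 37 and 17 reads in replicate 1, and 3 and 14 in replicate 2. Vamp9 had 0 reads in both.

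Vamp1, the second synaptobrevin (chr6:125215551-125245964, + strand), had 5 reads in replicate 1 and 46 in replicate 2, or 6.17 and 78.2 CPM. The kind of read differed as well. All 5 reads of replicate 1 were unspliced, while 6 of the 46 in replicate 2 were, and none of the annotated Vamp1 transcripts had a read in replicate 1. Vamp1 overlaps Cd27 and Tapbpl on the opposite strand, and the sources used here do not say whether reads were counted by strand, so the origin of its unspliced reads is uncertain. In replicate 2, 33 reads were of Vamp1-203, 3 of Vamp1-201 and 2 of Vamp1-202. These transcripts share their coding sequence up to exon 4 and differ in its 3' end, which encodes the C terminus of the protein. The ends of the reading frames are printed from the GENCODE M21 transcripts, the last 30 shared bases in lower case and the bases after them, stop codon included, in capitals. They start at chr6:125219608 on mm10, + strand.
Vamp1-203: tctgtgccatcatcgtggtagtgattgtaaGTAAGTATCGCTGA
Vamp1-201: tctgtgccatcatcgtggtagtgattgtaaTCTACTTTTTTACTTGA
Vamp1-202: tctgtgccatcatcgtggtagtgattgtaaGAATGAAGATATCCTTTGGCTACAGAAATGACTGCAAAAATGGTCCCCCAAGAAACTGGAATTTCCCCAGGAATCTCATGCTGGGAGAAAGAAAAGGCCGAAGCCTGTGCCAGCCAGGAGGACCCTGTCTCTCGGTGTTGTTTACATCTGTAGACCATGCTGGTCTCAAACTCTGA

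After the shared part the frame runs on for 14 bases in Vamp1-203, which reads straight into the next intron, 17 in Vamp1-201 and 176 in Vamp1-202. The form with most reads in replicate 2 was thus the one that ends within the extended exon 4.

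Of the synaptotagmins, 14 of 17 were detected, and they held 110 reads in replicate 1 and 236 in replicate 2, or 8.84% (7.32 to 10.6) and 18.9% (16.8 to 21.2) of member reads. Most of that was Syt12, a synaptotagmin without the residues that bind calcium (chr19:4445908-4477447, - strand), with 56 reads in replicate 1 and 164 in replicate 2, or 69.1 and 279 CPM. At 279 CPM Syt12 was the member with the highest level in replicate 2, and it was at rank 342 of 3214 genes of like length in replicate 1 and rank 253 in replicate 2. Syt4, which sits on dense-core granules and modulates fusion (chr18:31437808-31447406, - strand), had 19 reads in replicate 1 and 37 in replicate 2, or 23.4 and 62.9 CPM.

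The classical calcium sensors were sparse. Syt1, the fast sensor of synaptic vesicles and chromaffin granules (chr10:108497650-109010982, - strand), had 5 reads in replicate 1 and 6 in replicate 2. Only replicate 2 held full-length Syt1-201 matches, 4 of them. Syt7, the slow high-affinity sensor of mouse chromaffin cells (chr19:10389090-10453180, + strand), had 2 reads in replicate 1, both unspliced, and 0 in replicate 2, which allows 5.10 CPM. Syt9, a fast sensor of endocrine and some neuronal cells (chr7:107370728-107548656, + strand), had 3 reads in replicate 1 and 0 in replicate 2, and 2 of the 3 were unspliced. Syt2, Syt6 and Syt8 had 0 reads in both. Each of the other synaptotagmins, Syt11, Syt17, Syt3, Syt14, Syt16, Syt10, Syt5, Syt13 and Syt15, had at most 10 reads in replicate 1 and at most 7 in replicate 2.

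All 7 syntaxin-binding proteins were detected, with 99 reads in replicate 1 and 174 in replicate 2, or 7.96% (6.52 to 9.60) and 13.9% (12.1 to 16.0) of member reads. Stxbp3, the Unc18 protein that pairs with Stx4a (chr3:108793176-108840526, - strand), had 32 reads in replicate 1 and 75 in replicate 2, or 39.5 and 128 CPM. Stxbp2, the Unc18 protein of non-neuronal granule exocytosis (chr8:3630955-3643644, + strand), had 34 reads in each library, or 42.0 and 57.8 CPM. Stxbp5, tomosyn, an inhibitor of SNARE assembly (chr10:9755547-9901079, - strand), had 4 and 5 reads, none of them a full match to an annotated transcript. Stxbp4, which binds Stx4a, had 5 reads in replicate 1 and 25 in replicate 2, and Stxbp6, a SNARE-like protein without a membrane anchor, had 15 and 10.

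Complexins were close to absent from the reads, with 4 in replicate 1 and 3 in replicate 2 for the 4 genes. Cplx1 had 1 read in replicate 1 and 2 in replicate 2, and Cplx2, the complexin of mouse chromaffin cells, had 3 and 1. Of the Cplx2 reads 1 was spliced. Cplx3 and Cplx4 had 0 reads in both, which allows 3.70 CPM in replicate 1 and 5.10 CPM in replicate 2. Snap91, which the symbol rule brings in although it encodes the clathrin adaptor AP180 and no SNARE, had 10 reads in replicate 1 and 17 in replicate 2.

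A list of 14 members of the synaptic type of exocytosis (among them Snap25, Stx1a, Vamp1, Vamp2, Syt1, Syt2, Syt4, Syt7, Syt9, Stxbp5, Cplx1 and Cplx2) held 93 reads in replicate 1 and 147 in replicate 2. This is 7.48% (6.08 to 9.08) of member reads in replicate 1 and 11.8% (10.04 to 13.7) in replicate 2, a mean of 9.63 ± 3.04% (SD, n = 2). Of the 14 genes 12 were detected, and 6 had at least 10 reads over both libraries. Different genes made up the list in each library: Snap25 had 32 of 93 reads in replicate 1 and 8 of 147 in replicate 2, and Vamp1 had 5 of 93 and 46 of 147. The other 42 members held 92.5% and 88.2%. Like the members, the 14 listed genes were chosen with earlier results of these data known. Markers of sympathetic neurons, which also use these genes, were at 135 CPM in replicate 1 and 13.6 CPM in replicate 2, with 7 of 8 detected and Gap43 at 0. Those of brain neurons were at 2.47 and 11.9 CPM, with 3 of 4 detected and Slc17a7 at 0. The part of any neuronal RNA in the list was not tested.

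Whether the libraries differed by more than counting error was asked gene by gene, with an exact two-sided binomial test on TMM-scaled counts. TMM is a scaling that centres most genes. Benjamini-Hochberg adjustment was over all 9809 genes with at least 10 reads. A gene was called at an adjusted p under 0.05. Such a test compares these libraries, not conditions, and has no replicate check. Of the 34 members tested, 15 were called, or 44.1%, beside 66.2% of all genes tested. Replicate 1 was higher for 7 members (35.6% of all genes were called in that direction) and replicate 2 for 8 (30.6% of all genes), and 19 were not called. With library totals in place of TMM, 6 were higher in replicate 1 and 12 in replicate 2. That is 52.9% of the members tested, beside 70.1% of all genes tested, and 43.2% of the calls over all genes were then higher in replicate 1. The median log2 ratio of replicate 1 over replicate 2 was 0.0082 over the members and 0.0082 over all genes. CPM ratios differ from the folds of the test by a constant factor.

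The 7 members higher in replicate 1 all encode R-SNAREs or Q-SNAREs. Vamp8 was 10.7-fold higher in replicate 1 (95% interval 5.18 to 25.5), with a log2 ratio of 3.34 and an adjusted p of 6.43e-17 by the exact binomial test. Vamp5 had a log2 ratio of 3.43, Stx8 2.64, Snap25 1.94, Snap47 1.44, Vamp4 1.40 and Stx18 1.22. Those higher in replicate 2 were syntaxins, an R-SNARE, synaptotagmins and syntaxin-binding proteins. Vamp1 was 9.15-fold higher there (3.65 to 29.5), with a log2 ratio of -3.07 and an adjusted p of 8.43e-09 by the same exact test, and Syt12 2.91-fold (2.14 to 4.02), with -1.53 and 8.83e-13. Log2 ratios of others were -2.21 for Stxbp4, -1.95 for Stx11, -1.21 for Stxbp3, -0.94 for Syt4 and -0.84 for Stx12. Stx7, Stx5a, Snap23, Stxbp2, Stx17, Stx6, Vamp3, Vamp2 and Syt1 were among the members not called, with log2 ratios from -0.50 for Stx6 to 0.36 for Stx5a. Vamp5, Stx18, Stxbp4 and Stx11 lie outside the rule for named genes and were chosen after their values were seen.

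Transcript length moved with these differences. The 7 members higher in replicate 1 had a median model length of 1461 nt, the 8 higher in replicate 2 one of 3736 nt, and 18 members not called 2924 nt. Across the 26 members with at least 20 reads and a model length, Spearman's rho of the log2 ratio on length was -0.506, and across 7416 genes it was -0.658, both as descriptions over genes of the same libraries. With the trend over all genes removed, 16 of 33 members were called, or 48.5%, beside 42.4% of all genes. Of these members 10 were higher in replicate 1 and 6 in replicate 2, beside 21.1% and 21.3% of all genes called in those directions. Only 4 of the 15 calls kept their direction, Stx8, Stx18, Vamp1 and Stxbp3. Vamp4 and Snap25 turned toward replicate 2, at log2 ratios of -1.25 and -1.79, 9 calls were lost, Vamp8 and Syt12 among them at -0.68 and -0.02, and 10 were gained. The members' median became 0.189, against -0.0632 over all genes.

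**Figure D2:**
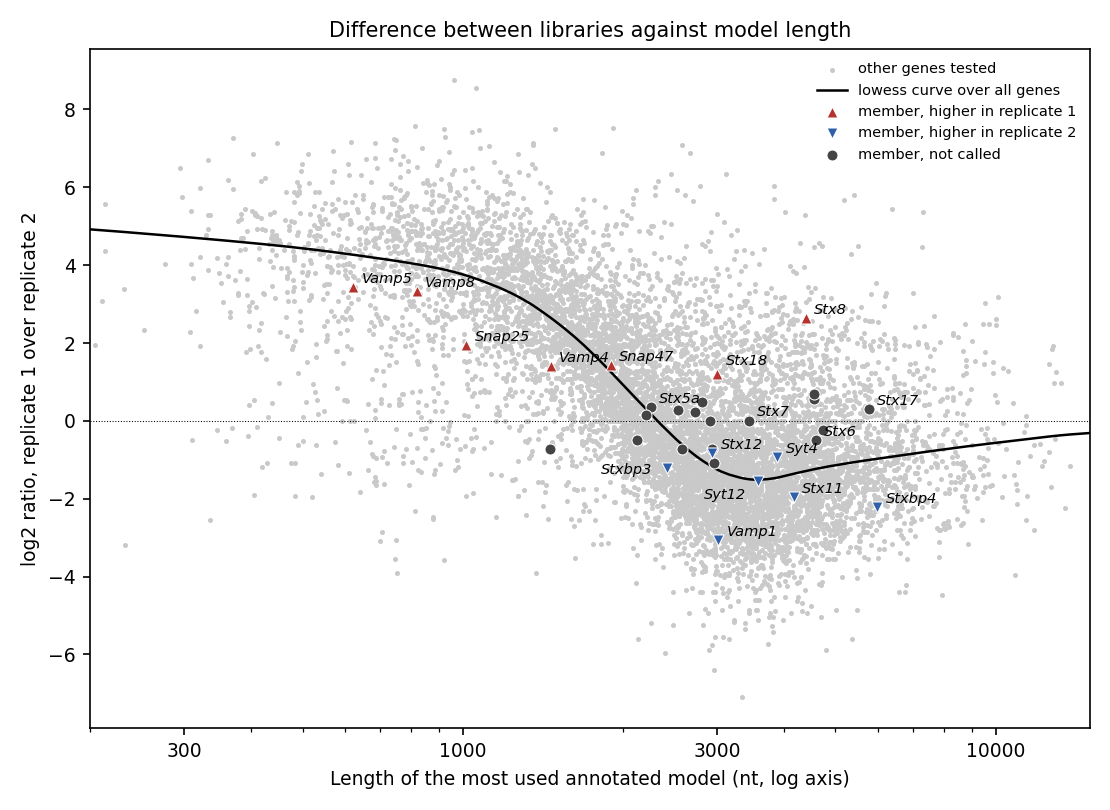
Log2 ratio of replicate 1 over replicate 2 (TMM scale) against the length in nt of the most used annotated model (log axis), for the genes tested (grey) and 32 of the 34 members tested, with the lowess curve over all genes. Red triangles are members higher in replicate 1, blue triangles members higher in replicate 2 and dark circles members not called; Vamp5, Vamp8 and Snap25 lie with the short genes above 0, and Stx8 stands far above the curve.

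The lengths are those of the annotated models and not of the reads, and for some members unannotated models ended elsewhere. The ends compared here are those of models, each counted once per read. Ends of single reads were not measured. The last exon of Stx8-201 is annotated with 3443 nt, but the models of 3 unannotated spliced reads with the same last junction end after 65 nt. For Stx17-202 the annotated 5009 nt stood beside a median of 733 nt in 15 such reads, for Stx7-205 2595 nt beside 1334 nt in 28 reads, and for Syt12-201 1953 nt beside 2730 nt in 23 reads. Stx8, Stx17 and Stx7 all gained or kept a higher value in replicate 1 once length was taken into account, at log2 ratios of 3.93, 1.31 and 1.51. Since their reads may be shorter than the annotation, these length-adjusted values are uncertain. Markers of macrophages, a cell type known to express Vamp8 and Stx11, were at 1249 CPM in replicate 1 and 279 CPM in replicate 2, with 6 of 6 detected. The list did not move together: Lyz2, C1qa, C1qb and Cd68 were called higher in replicate 1, Csf1r (16 reads in replicate 1 and 48 in replicate 2) and Adgre1 (14 and 37) higher in replicate 2, and its median log2 ratio with the length trend removed was 0.08. The part of macrophages in Vamp8 or Stx11 was not tested.

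Reads also show which transcripts of a member were made. Annotated models took 77.7% (75.2 to 79.9) of member reads in replicate 1 and 80.5% (78.2 to 82.7) in replicate 2, beside 78.7% and 74.1% over all annotated genes. Incomplete matches, which hold part of an annotated chain of junctions, took 6.99% (5.64 to 8.56) and 5.21% (4.04 to 6.59), beside 10.5% and 10.8% over all genes. Known splice sites in an unannotated combination took 3.05% and 4.25%, unannotated splice sites 4.10% and 5.13%, and genomic reads, mostly unspliced reads inside a gene, 8.20% (6.73 to 9.86) and 4.89% (3.76 to 6.23). The genomic share over all annotated genes was 5.14% in replicate 1 and 3.11% in replicate 2.

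Most of the well-read members were made as 1 main transcript. Stx6-201 took 50 of 52 Stx6 reads in replicate 1 and 69 of 74 in replicate 2, Vamp3-201 took 42 of 43 and 54 of 61, and Stx12-201 took 58 of 66 and 112 of 119. Snap47-201 had 83.8% and 83.1% of its gene's reads, and Snap23-202 80.6% and 79.2%. These shares were nearly equal in the libraries. Stx17 was the member with the largest unspliced part among the 11 with at least 30 reads in each library, 12 of 48 reads in replicate 1 and 15 of 39 in replicate 2.

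Fisher's exact test on the most used model, adjusted over 4733 genes, called 3 of 18 members tested, or 16.7%, beside 28.6% of all genes tested. Stx5a-213 took 41 of 83 Stx5a reads in replicate 1 (49.4%) and 9 of 65 in replicate 2 (13.8%), with an adjusted p of 5.58e-05 by Fisher's exact test with Benjamini-Hochberg adjustment. Stx5a-209, a single-exon transcript annotated as a retained intron, had 2 reads in replicate 1 and 21 in replicate 2, while the coding Stx5a-202 had 19 and 18. Unspliced unannotated Stx5a reads went the other way, with 11 in replicate 1 and 1 in replicate 2. All unspliced Stx5a reads, those of Stx5a-209 included, numbered 14 of 83 in replicate 1 and 22 of 65 in replicate 2. How far the label given to single-exon reads shaped the Stx5a-209 counts was not tested. Vamp4-204 took 39 of 48 Vamp4 reads (81.2%) in replicate 1 and 6 of 18 (33.3%) in replicate 2, with an adjusted p of 0.00417 by the same exact test. The rest of Vamp4 in replicate 2 included 6 reads of Vamp4-203, which has the same coding length of 423 nt and another last exon further downstream. Annotated lengths are 1461 nt for Vamp4-204 and 2752 nt for Vamp4-203, and 2251 nt for Stx5a-213 and 3015 nt for Stx5a-209. In both genes the longer of the pair had its larger share in replicate 2, the library with the longer models. Stx5a-202, at 2112 nt, took 22.9% in replicate 1 and 27.7% in replicate 2. The part of length in these shifts was not tested. Syt12-201 took 36 of 56 reads (64.3%) in replicate 1 and 141 of 164 (86.0%) in replicate 2, with an adjusted p of 0.00493 by that exact test, and unspliced Syt12 reads numbered 11 and 5. Syt12 overlaps A930001C03Rik on the opposite strand, so strand matters for its unspliced reads too. An unadjusted p under 0.05 was found for 4 members.

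**Figure D3:**
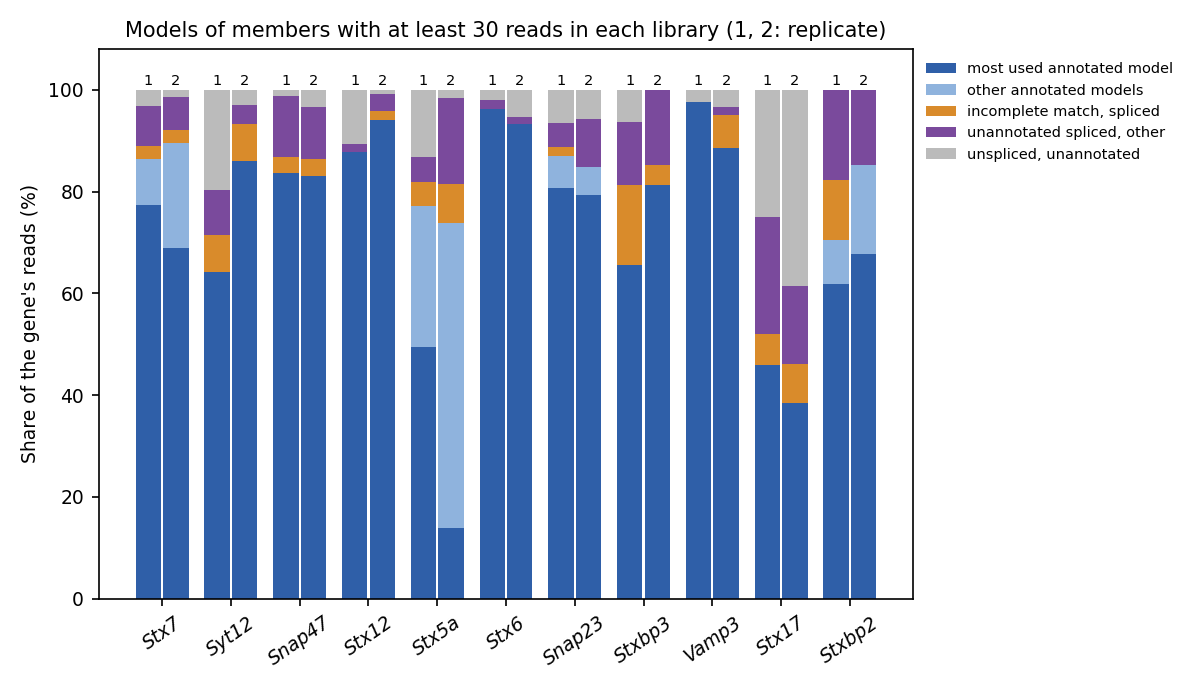
Share of each gene's reads (%) by kind of model for the 11 members with at least 30 reads in each library, with replicate 1 as the left bar and replicate 2 as the right bar of each pair. The most used model fills most of the bar except for Stx5a, where it had 49.4% in replicate 1 and 13.8% in replicate 2, and Stx17, whose unspliced share was 25.0% in replicate 1 and 38.5% in replicate 2.

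Nonsense-mediated decay forms were seen for Stx1a. Of its 9 reads in replicate 2, 3 were of the coding Stx1a-201, 3 of Stx1a-204, annotated for decay, 1 of the retained-intron form Stx1a-205, 1 an incomplete match and 1 unspliced. Stx1a-204 carries an added segment of 83 bases at chr5:135048911-135048993 (mm10, + strand), after which the frame ends in the following shared exon. Its sequence is given from the GENCODE M21 transcript because as many reads held it as held the coding form.
Stx1a-204 added segment: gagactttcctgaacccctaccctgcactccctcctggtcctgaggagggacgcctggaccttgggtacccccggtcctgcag

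Pairs of junctions that share a donor or an acceptor were then counted in all members, keeping pairs with at least 5 reads on the lesser junction. There were 18 pairs in 10 members, and the lesser junction was in no annotated transcript for 4 of them. These pairs were chosen after the values were seen and are given without a test. Stx7 used a first donor 318 nt downstream, that of Stx7-201, in 10.8% (6.17 to 17.2) of reads in replicate 1 and 23.1% (16.4 to 30.9) in replicate 2. Stx7-205 and Stx7-201 have equal coding lengths of 783 nt. Vamp4 used the distal last exon in 3 of 46 reads in replicate 1 (6.52%, 1.37 to 17.9) and 6 of 13 in replicate 2 (46.2%, 19.2 to 74.9), intervals that do not overlap. Vamp4-203, with the distal exon, is 2752 nt long and Vamp4-204 1461 nt, so the longer model gained in replicate 2. For Stx7 the shorter model gained there, with Stx7-201 at 2502 nt and Stx7-205 at 3435 nt. The part of model length in either shift was not tested. Snap47 used a junction shifted by 3 nt that no annotated transcript holds in 6.29% (2.92 to 11.6) and 7.55% (2.09 to 18.2), nearly the same share in both. Stx17 used a donor shifted by 108 nt in 26.5% (12.9 to 44.4) and 17.4% (4.95 to 38.8).

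Stxbp2 has a pair of acceptors 3 bases apart (chr8:3641806-3641912, + strand, mm10), which adds or leaves out CAG. The upstream acceptor of Stxbp2-201 was used in 3 of 32 reads in replicate 1 (9.38%, 1.98 to 25.0) and 7 of 34 in replicate 2 (20.6%, 8.70 to 37.9), with overlapping intervals. Both junctions are shown from the GENCODE M21 transcripts with 15 bases on either side and the 3 added bases in capitals.
Stxbp2-201: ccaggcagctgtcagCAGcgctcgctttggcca
Stxbp2-207: ccaggcagctgtcagcgctcgctttggcca

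**Figure D4:**
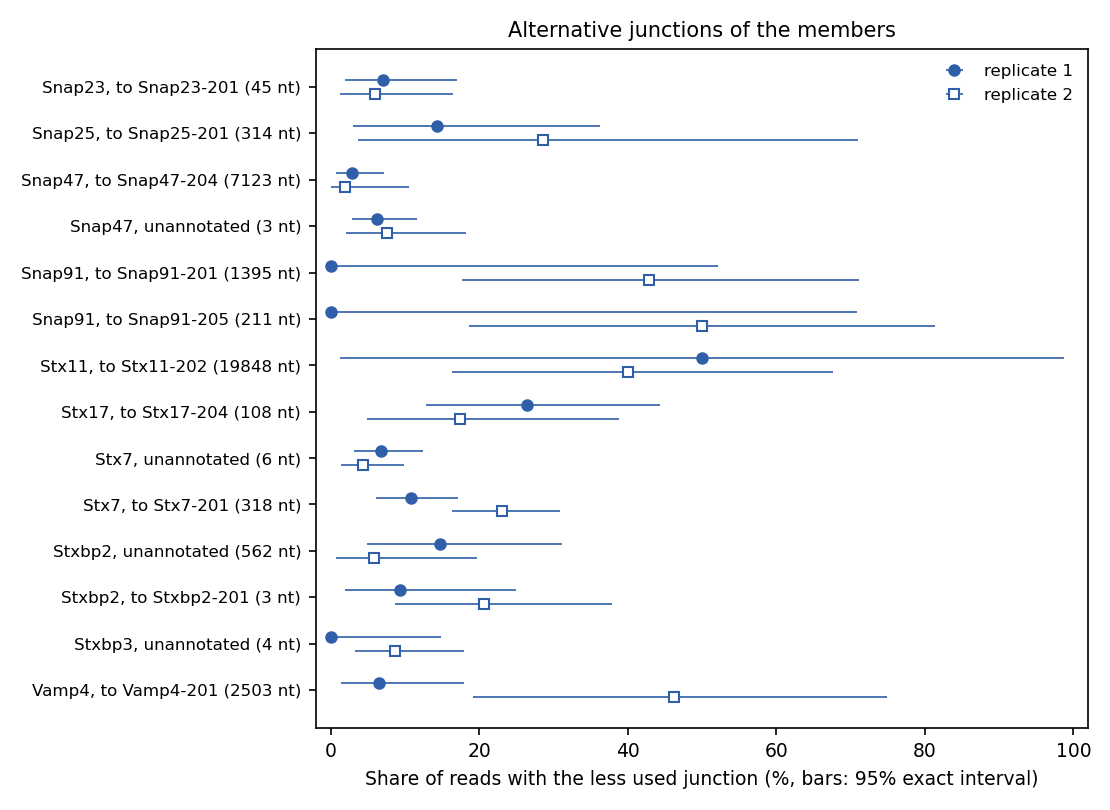
Share (%) of reads that use the less used of a pair of alternative junctions in the 10 members with such a pair, with pairs at the same event merged; filled circles are replicate 1, open squares replicate 2, and bars 95% exact intervals. Intervals of the replicates overlap in each row except for Vamp4, at 6.52% in replicate 1 and 46.2% in replicate 2, and the Snap91 and Stx11 points of replicate 1 rest on at most 5 reads.

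Beyond the symbol families, 58 other genes of vesicle fusion and granule release were listed, and 52 were detected, with 1738 reads in replicate 1 and 1499 in replicate 2. Of 36 tested, 13 were higher in replicate 1, 10 higher in replicate 2 and 13 not called, so that 63.9% were called, beside 66.2% of all genes. With the length trend removed, 8 were called higher in replicate 1 and 4 in replicate 2, beside 21.1% and 21.3% of all genes called in those directions. Nsf, the ATPase that takes spent SNARE complexes apart, had 27 reads in replicate 1 and 232 in replicate 2, while its adaptors differed among themselves. Napa had 362 reads in replicate 1 and 76 in replicate 2, Napb 13 and 22, and Napg 3 and 13. Napa was called higher in replicate 1, Nsf and Napg were called higher in replicate 2, and Napb was not called. Among SNAREs with other symbols, Gosr2 and Vti1a had 72 and 22 reads in replicate 1, and 247 and 72 in replicate 2, while Sec22b and Vti1b had 159 and 121 in replicate 1, and 69 and 5 in replicate 2. Rab3d, a granule GTPase, had 45 and 120 reads, Rims2, a scaffold of release sites, 64 and 38, and the vesicle protein Syp 2 and 26. With the length trend removed, log2 ratios were 2.74 for Napa, -1.58 for Nsf, 0.59 for Napb and -0.43 for Napg. Gosr2 was then at -0.33, Vti1a at -0.19, Sec22b at 2.22 and Vti1b at 1.91. Rab3d was at 0.08, Rims2 at 2.26 and Syp at -2.76. Of the priming factors, Unc13a and Unc13c had 0 reads in both libraries, and Unc13b had 2 reads in replicate 1 and 3 in replicate 2. Cadps and Cadps2, the priming factors of dense-core granules, had 1 and 2 reads in replicate 1, and 4 and 2 in replicate 2. Doc2a, Sytl1, Sv2b and Syngr4 were also at 0 in both.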

How the data were processed

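The authors deposited counts of reads for each transcript model, not normalized, per the file headers. Models were made separately per library, with mm10 and GENCODE M21, per the accompanying notes. The model identifiers are those of TALON, which assigns a read to an annotated transcript or an unannotated model. Of the aligner, the strand setting and the platform, the name or version is not given in the sources used here. Replicate 1 held 810239 reads and replicate 2 held 587861.

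A gene's level is the sum over its models, as reads and as CPM over all reads. The members and the gene lists were chosen with earlier results of these data known. Named were members with at least 50 reads over both libraries, the 14 genes of the synaptic list, and members without reads; some of these are not reported here. Models were described for members with at least 30 reads in each library.

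The libraries were compared with the exact two-sided binomial test, its share set by TMM (edgeR 4.0.16, R 4.3.3), over genes with at least 10 reads, with Benjamini-Hochberg adjustment (threshold 0.05) and 0.5 reads added for log2 ratios. For model use Fisher's exact test was run on genes with 10 or more reads in both libraries, after matching spliced unannotated models by their junctions and pooling unspliced ones. A lowess curve (span 0.3, genes with at least 20 reads, statsmodels 0.14.6) gave the length trend. The tests were also run on simulated counts that held set differences and counting error only. Such a check cannot cover spread between libraries beyond counting error. Alternatives were other scalings, filters on reads, models counted, and removal of the length trend; counting spliced models only was, for all results except the class shares, chosen after seeing the data. Intervals are 95% Clopper-Pearson for shares and exact Poisson for levels (scipy 1.17.1). Sequences are from the GENCODE M21 transcripts. The p-values ask only whether a difference between these libraries exceeds counting error in the reads, and they measure no spread between replicates. Nothing shows that the replicates are separate animals, so such a difference may be technical.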

Additional observations from a re-analysis of the deposited data

How the results depend on the processing

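The summed level stayed between 1784 and 1982 CPM and the synaptic share between 8.36% and 9.63% over the models counted, and leaving out either replicate gave 1535 to 2123 CPM and 7.48% to 11.8%. With spliced models alone the annotated share was 85.0% in place of 79.1% and the genomic share 0.0429% in place of 6.54%, since unspliced reads are then left out. The number of members called was 15 to 18 in each alternative, but values of single genes moved with the scaling. As a share this was 31.2% to 57.7% of the members tested, beside 38.8% to 76.0% of all genes. The members' share was below that of all genes except with the length trend removed (48.5% beside 42.4%). A like count did not mean the same genes, since with that trend removed only 4 of the 15 calls kept their direction. Library totals lowered all log2 ratios alike and put the median log2 ratio of all genes at -0.463 in place of 0.0082, and the share of all calls higher in replicate 1 at 43.2% in place of 53.8%, so that small positive ratios not called with TMM became negative: Stx7 (-0.45), Stx5a (-0.11), Snap23 (-0.24), Stx17 (-0.17), Stxbp2 (-0.46) and Vamp2 (-0.32). Of these, Stx7 was then called higher in replicate 2, as were Stx6 (-0.97) and Vamp3 (-0.96), which were not called with TMM. Removal of the length trend turned Stx12 (0.34), Stx6 (0.74), Vamp8 (-0.68), Vamp4 (-1.25), Syt4 (0.52), Snap25 (-1.79), Vamp2 (-0.15) and Syt1 (0.96). Stx5a (0.97) and Stx17 (0.86) were called higher in replicate 1 with spliced models alone. The call of Syt4 was lost with genes of at least 1 read tested or spliced models alone. Of the isoform calls, that of Syt12 was lost without genomic models. Vamp4, with 18 reads in replicate 2, was not tested where 20 reads were required in each library. Depth limits most of the synaptic genes, 8 of which had fewer than 10 reads. No paired analysis was possible because there is 1 group.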
